A study of Mus musculus with 2 samples.

Results

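The 7 genes that encode the subunits of the NMDA receptor (Grin1, Grin2a, Grin2b, Grin2c, Grin2d, Grin3a and Grin3b) were described in DNase-seq of mouse hippocampus. They were taken by name, as 7 of 21728 protein-coding genes outside the Y chromosome. Every peak, footprint and run of bases with a low false discovery rate (FDR) was taken from the gene body and 10 kb on each side. A peak was called a promoter peak where it came within 1 kb of an annotated transcription start site (TSS) of the gene. A distal peak came that near to no start of a protein-coding gene, and a neighbour promoter peak did so only for another gene.

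The NMDA receptor is a glutamate-gated channel that lets calcium into neurons when glutamate is bound and the membrane is depolarized. It holds the obligatory GluN1 subunit with GluN2 or GluN3 subunits, which set its kinetics, its magnesium block and its partners. In the hippocampus GluN2B dominates early in life and GluN2A is added as synapses mature, while GluN2C, GluN2D and GluN3B are known mainly from other sites or cell types. DNase I cuts open chromatin most often, so that promoters and enhancers appear as peaks. Bases protected by a bound protein appear within them as short footprints.

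The tissue of both DNase-seq libraries carries the label layer of hippocampus, the layer not being named, and came from B6CASTF1/J mice. This strain is a first-generation hybrid of a C57BL/6 and a wild-derived CAST parent. They are labelled male and 25 day, with no treatment, and form 1 group as biological replicates 1 and 2. Both cite 1 donor entry, which leaves unknown whether separate animals were used, and their spread may be technical.

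Replicate 1 held 93545 peaks and 223251 footprints, and replicate 2 held 79144 and 170016. The number of cuts in each library is unknown. The male label of replicate 2 disagreed with some of its peaks on the sex chromosomes, though not with all. Xist, the X-inactivation RNA, had a promoter peak of 1.01 there and none in replicate 1. Eif2s3y, Kdm5d and Ddx3y on the Y chromosome had 1, 1 and 2 peaks in replicate 1 and none in replicate 2. Uty, also on the Y chromosome, went the other way, with 1 peak in replicate 1 and 2 in replicate 2. The whole Y chromosome had 40 peaks in replicate 1 and 39 in replicate 2. Replicate 2 is called the library labelled male replicate 2 below, and paired values give replicate 1 before it. All 7 members lie on autosomes. Of markers fixed for the cell types of the tissue, 3 of 3 dentate granule cell genes and 4 of 4 general neuronal genes had a promoter peak in both libraries, against 1 of 4 for oligodendrocytes and 1 of 3 for microglia. For CA1 and CA3 pyramidal cells it was 2 of 3 each, for excitatory neurons 4 of 5, for inhibitory neurons 2 of 5, for astrocytes 3 of 5, and for cerebellar granule cells, which the hippocampus lacks, 2 of 3. Among all protein-coding genes the share was 63.2%, and lists this short do not rank the cell types. In bulk tissue, fewer cells with an open site and less opening per cell cannot be told apart.

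Peak height below is the authors' signal value, used within a library and set side by side between libraries. It has no stated scale. Peaks were called in each library separately.

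The sequences that carry the main distal findings are those of the strongest distal regions called in both libraries at Grin1, Grin2a, Grin2b and Grin2c, with the promoter of Grin1 for contrast. Capitals mark bases inside a footprint of at least 1 library. The promoter is the RefSeq entry upstream of the TSS (GRCm38.p6, chr2:25319188-25319437, minus strand). The regions are printed on the plus strand of GRCm38.p6, the build that mm10 names: chr2:25292961-25293160 in intron 18 of Grin1, chr6:135907601-135907820 in intron 4 of Grin2b, the middle 200 bases (chr16:9768391-9768590) of the peak in intron 3 of Grin2a, and chr11:115270541-115270800 upstream of Grin2c, inside the gene Fdxr.
Grin1 promoter: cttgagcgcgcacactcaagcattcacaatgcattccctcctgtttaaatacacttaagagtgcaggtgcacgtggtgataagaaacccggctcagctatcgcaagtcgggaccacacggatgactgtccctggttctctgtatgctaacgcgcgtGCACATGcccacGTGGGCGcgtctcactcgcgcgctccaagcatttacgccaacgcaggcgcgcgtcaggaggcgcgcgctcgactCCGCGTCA
Grin1 intron 18 peak: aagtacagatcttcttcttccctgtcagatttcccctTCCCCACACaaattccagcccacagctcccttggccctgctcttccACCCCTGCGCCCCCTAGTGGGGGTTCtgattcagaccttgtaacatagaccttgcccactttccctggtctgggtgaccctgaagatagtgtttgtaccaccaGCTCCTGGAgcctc
Grin2b intron 4 peak: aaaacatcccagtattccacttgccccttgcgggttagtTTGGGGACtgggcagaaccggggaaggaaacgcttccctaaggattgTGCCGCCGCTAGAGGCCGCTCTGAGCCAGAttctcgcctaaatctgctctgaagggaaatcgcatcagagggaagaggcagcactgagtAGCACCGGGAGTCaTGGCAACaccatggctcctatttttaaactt
Grin2a intron 3 peak, middle: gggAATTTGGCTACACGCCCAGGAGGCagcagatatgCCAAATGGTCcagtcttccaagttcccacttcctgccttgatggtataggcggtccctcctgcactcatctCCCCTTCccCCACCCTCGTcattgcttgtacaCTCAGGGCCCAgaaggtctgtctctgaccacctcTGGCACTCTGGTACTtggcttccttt
Grin2c upstream peak: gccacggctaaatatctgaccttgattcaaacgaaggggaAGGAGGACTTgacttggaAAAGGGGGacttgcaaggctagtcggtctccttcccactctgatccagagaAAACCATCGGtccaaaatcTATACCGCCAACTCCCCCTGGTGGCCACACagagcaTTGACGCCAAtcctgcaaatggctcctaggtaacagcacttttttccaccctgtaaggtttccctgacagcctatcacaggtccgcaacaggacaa

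In 3 of these regions a footprint of 26 bases or more lay at nearly the same bases in both libraries. In the Grin1 intron it ran from base 84 to base 109 (26 bases) in both. At Grin2b it ran from base 87 to 115 (29 bases) in replicate 1 and from 91 to 116 (26 bases) in the library labelled male replicate 2, and at Grin2c from 133 to 158 (26 bases) and from 129 to 158 (30 bases). The Grin2a region had a shorter one, from base 4 to 25 (22 bases) and from 7 to 27 (21 bases). Lengths of 26 or more were uncommon: the median footprint was 8 and 9 bases long, and 3.49% and 5.06% of footprints had 26 bases or more. The cut of 26 bases is the length of the Grin1 footprint itself. These shares are over all footprints, and the longest footprint of each strong distal region was not counted for comparison. Each of the 3 long footprints covered a match to at least 12 of the 14 positions of the consensus of CTCF, an insulator protein that anchors chromatin loops, on either strand. The Grin1 site (CCACTAGGGGGCGC) matched 14 positions and the Grin2b (CCGCTAGAGGCCGC) and Grin2c (CCACCAGGGGGAGT) sites 12 each. Long footprints were not limited to such matches: the best match under that of Grin2a reached 11 positions, as did that under the longest footprint at these genes, of 39 and 44 bases, in a region downstream of Grin3b. This consensus was searched after the sequences had been seen, and such matches are common. Of 31285 shared distal regions, 33.4% held a match of 12 or more in their middle 200 bases and 7.72% one of 14, and of the 15 shared distal regions at the members 5 held one of 12 or more. At Grin2a a region in intron 4 matched all 14 positions (CCAGCAGGGGGCAC), with short footprints of the 2 libraries over 7 and 4 of them.

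Promoter peaks were found at 5 of the 7 genes in both libraries (Grin1, Grin2a, Grin2b, Grin2d and Grin3a), and at none in only 1 library. Grin2c and Grin3b had none in either. Among all protein-coding genes, 63.2% had a promoter peak in both libraries, so that 5 of 7 is near the background. In the authors' shorter, stricter lists the same 5 genes had a promoter peak in both libraries, against 57.6% of all genes. A distal peak was present in both libraries at 6 of the 7 genes, all but Grin2d, against 49.5% of all genes. That share is not matched for gene length, so it does not show an excess. The 200 genes nearest in length to Grin2a had a median of 8 and 8 distal peaks, and those nearest to Grin2b 9 and 8. In the gene body alone, distal peaks numbered 0 and 1 at Grin2c and 0 and 0 at Grin3b.

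At the 7 genes together, peaks numbered 178 and 60 in the 2 libraries (119 ± 83.4, SD, n = 2). Promoter peaks numbered 24 and 20 (22 ± 2.83), and distal peaks 144 and 31 (87.5 ± 79.9). The libraries were alike in their total promoter counts and far apart in their distal counts. By gene, promoter counts differed at Grin1 (7 and 4), Grin2a (6 and 8) and Grin2d (4 and 1). Of the promoter peaks, 15 of 24 and 19 of 20 overlapped a peak of the other library. Of the peaks of replicate 1 at these genes, 41 of 178 (23.0%, exact 95% interval 17.1 to 29.9%) overlapped a peak of the other library, against 59.8% of all its peaks. In the library labelled male replicate 2 it was 44 of 60 (73.3%, 60.3 to 83.9%), against 71.7%. These intervals cover counting error only.

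**Figure D1:**
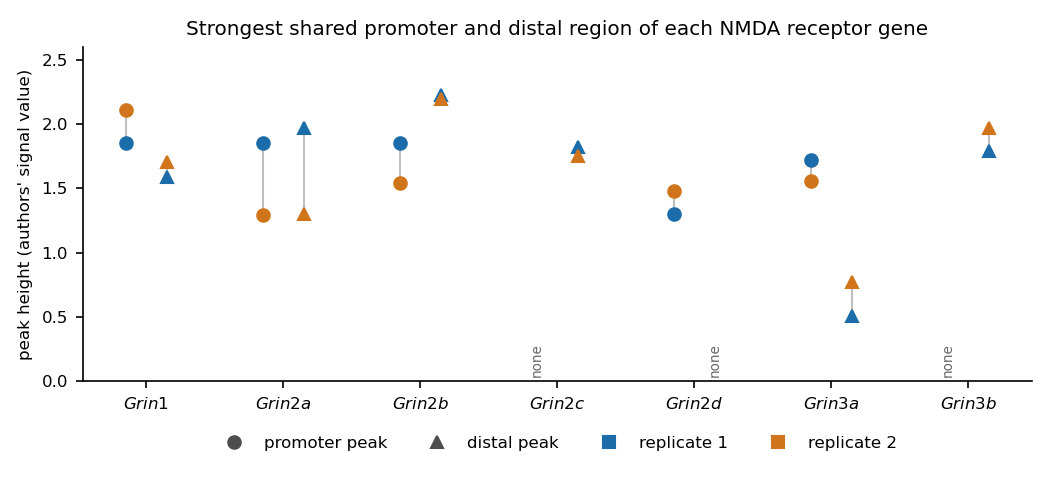
Peak height (the authors' signal value, linear axis) of the strongest promoter region and the strongest distal region found in both libraries for each gene. Circles are promoter and triangles distal regions, blue is replicate 1 and orange the library labelled male replicate 2, and grey lines join the values of 1 region. The Grin2b distal region (2.23 and 2.20) lies above its promoter, and Grin2c and Grin3b have no promoter region.

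Grin1 encodes GluN1, the subunit that every NMDA receptor needs. Its 5′ promoter peak had a height of 1.85 and 2.11 (1.98 ± 0.181, SD, n = 2) and spanned the starts of its protein-coding transcripts. It stood at the 39.3 and 50.9 percentiles of strongest promoter peaks among genes that have any, so in the lower to middle range. A further promoter-class peak in intron 1 had heights of 1.43 and 0.980. A weaker one, over coding exon 5 in replicate 1 (0.975) and in the adjoining intron 5 in the other library (0.735), counted as promoter only because 2 short non-coding transcripts start there. The RefSeq promoter held 33 CpG dinucleotides in 300 bases, more than 91.4% of the 32851 promoters in that table.

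The Grin1 promoter region also held a match to RE1, the element bound by the repressor REST, which keeps neuronal genes silent in other cells. It was searched as CAGCACC, a gap of 2 bases and GGACAG, on both strands. The match, CAGCACCTCGGACAG, lay in the 5′ untranslated part of exon 1 (chr2:25319018-25319032, minus strand), inside the peak of both libraries. None of its bases lay in a footprint in either library. The pattern is rare, being present in 0.0365% of the promoters of the table and 0.0607% of shared distal regions. These shares are from unlike windows, however. The promoters of the table are 300 bases long, and the match lies outside the Grin1 entry (chr2:25319138-25319437), which holds none. A GGGCGG (SP) match and the overlapping GCGGGGGCG (EGR) match at chr2:25319174-25319183 lay wholly in a footprint of the library labelled male replicate 2 and in none of replicate 1. GGGCGG occurred in 35.7% of promoters and the EGR pattern GCGNGGGCG in 5.55%.

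The strongest distal region of Grin1 was that in intron 18, near the 3′ end of the gene, with heights of 1.59 and 1.71. The same bases also lie inside the annotated gene Grin1os. This region ranked at the 90.2 percentile of the 31285 distal regions found in both libraries, ordered by mean height. Its CTCF match is also the only one at a shared distal region of these genes under the shorter pattern CNAGNGGGC, which 8.93% of shared distal regions held. Replicate 1 had 6 distal peaks at Grin1 and the library labelled male replicate 2 had 2. Of the other 5 in replicate 1, 3 lay from coding exon 4 into intron 3 with heights of 0.360 to 0.643 and had no counterpart. Just beyond that end, the promoter of Lrrc26, a regulator of potassium channels, was at 2.42 and 1.61, and that of Tmem210 had no peak.

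Grin2a encodes GluN2A, the subunit added as hippocampal synapses mature. Its promoter was the widest open region at these genes: overlapping peaks of both libraries formed 1 stretch of 2547 bp (chr16:9993334-9995880) across 4 of its 6 annotated starts. The strongest peak in it had a height of 1.85 and 1.30 (1.57 ± 0.393). A GGGCGG match at chr16:9995615-9995620 lay wholly in footprints of both libraries, and 6 others in the stretch did not. The stretch held 24 and 14 footprints.

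Inside the gene, 6 distal regions were found in both libraries, and those that follow are in 5′ to 3′ order. The first 2 lay in intron 3, at chr16:9851321-9851922 (1.12 and 0.864) and at chr16:9768321-9768660 (1.97 and 1.30). The latter was the strongest, at the 90.03 percentile of shared distal regions, and was higher than the promoter in replicate 1 and level with it (1.30 each) in the other library. Intron 4 held 3 more, with heights of 1.29 and 1.05, 1.17 and 0.735, and 0.982 and 0.857. The last, in intron 5, reached 0.756 and 0.632. Every one of these 6 regions was higher in replicate 1. The median log2 ratio of replicate 1 to the other library was 0.22 over the 24 shared promoter and distal regions of the members, and 0.13 over all 50949 shared regions.

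Grin2b encodes GluN2B, the main GluN2 subunit of the young forebrain. Its promoter had 2 shared regions, at chr6:136172161-136172620 in intron 1 (1.85 and 1.54) and over the 5′ starts (1.54 and 1.48). In the former, the overlapping NRF1 (GCGCGTGCG) and EGR (GCGGGGGCG) matches at chr6:136172462-136172476 were partly covered by footprints of both libraries, the NRF1 match over 7 and 5 of its 9 bases and the EGR match over 3 and 5. The NRF1 pattern GCGCNTGCG occurred in 6.31% of promoters.

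The most open region of Grin2b was not its promoter but the site in intron 4 printed above, with heights of 2.23 and 2.20 (2.21 ± 0.0197, SD, n = 2). It exceeded the strongest Grin2b promoter peak in both libraries and stood at the 95.9 percentile of shared distal regions, the highest of the 15 at these genes. The libraries gave the same 220 bases as its bounds. Besides the long footprint, it held a GTTGCCATG (RFX) match at bases 188 to 196 on the minus strand, covered by footprints over 7 and 1 of its 9 bases. That pattern occurred in 1.00% of shared distal regions. A smaller shared peak lay just beside it (0.897 and 0.683), and another, also in intron 4, had heights of 1.01 and 1.05.

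**Figure D2:**
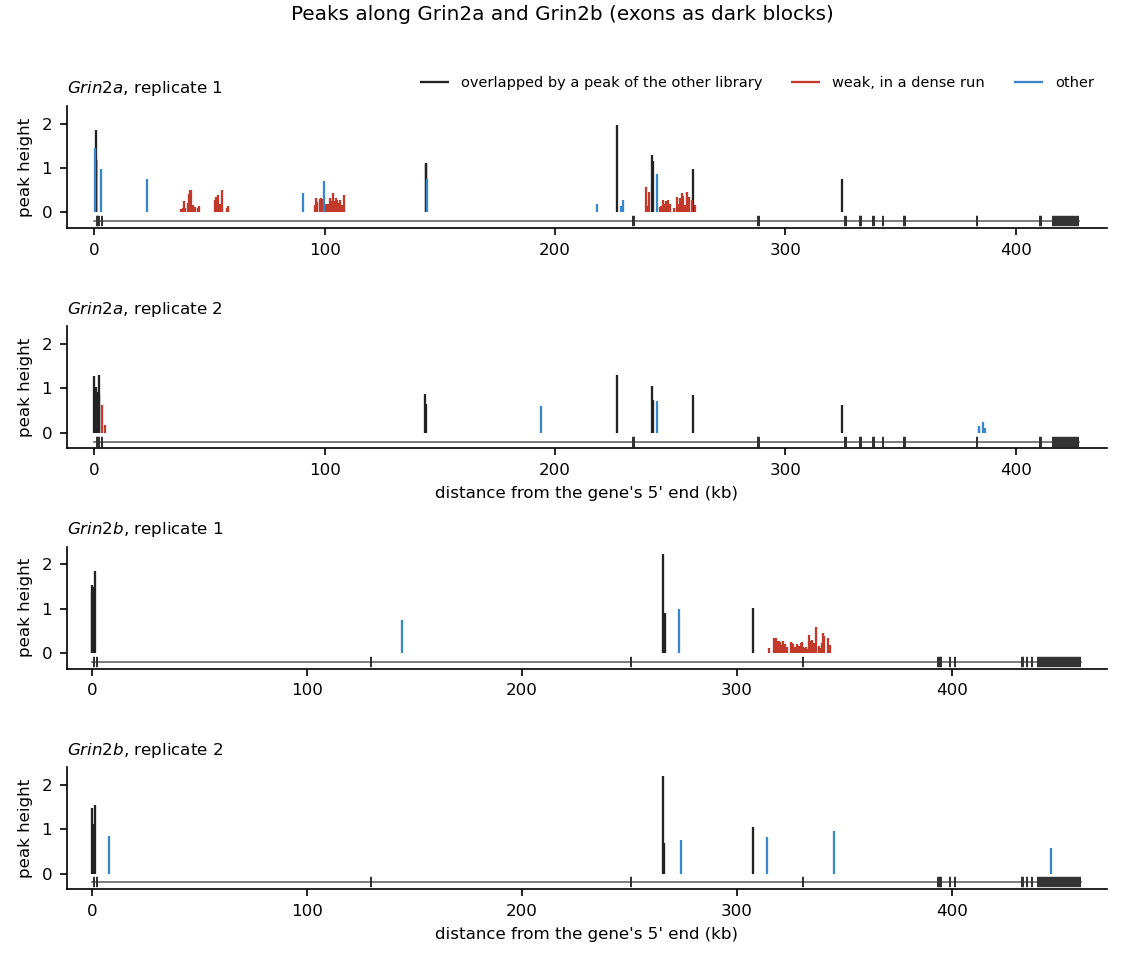
Peaks along Grin2a and Grin2b in each library, as distance in kb from the 5′ end of the gene (horizontal) and peak height (vertical, the authors' signal value). Black lines are peaks overlapped by a peak of the other library, red lines weak peaks in dense runs and blue lines other peaks, and dark blocks below are exons of 1 transcript. The black lines recur in both libraries, while the red runs of 70 and 39 peaks appear in replicate 1, beside 2 red peaks at Grin2a in the other library.

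Grin2a and Grin2b also carried most of the difference between the libraries, as dense runs of weak peaks. Distal peaks numbered 85 and 14 at Grin2a and 44 and 8 at Grin2b. Weak peaks in dense runs were defined, after the data had been seen, as peaks below the library's median height with at least 5 other peaks starting within 5 kb. There were 110 of them in replicate 1 (70 at Grin2a, 39 at Grin2b and 1 at Grin1), and 2 in the library labelled male replicate 2, both at Grin2a. These were 110 of 178 and 2 of 60 peaks at the 7 genes. Over the whole genome, weak peaks in dense runs made up 11.4% of the peaks of replicate 1 and 7.09% of those of the other library. None of the 110 overlapped a peak of the other library (exact 95% upper bound 3.298%), against 59.8% of all peaks of replicate 1 that did. The overlap of weak peaks in dense runs over the whole genome was not counted. The bound treats the peaks as independent, although nearly all of them lay in a few runs.

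The longest run covered 28.7 kb of Grin2b around its exon 5, with 22 weak peaks in intron 4 and 17 in intron 5, of median height 0.212 over the 39. In replicate 1, 52.1% of its bases had an FDR under 0.05 and it held 56 footprints, whereas the other library had 0 such bases and 0 footprints there. At Grin2a, 25 weak peaks lay in a run of 21.3 kb in intron 4, and runs of 12.9, 7.74 and 5.95 kb in intron 3 held 22, 14 and 9. The other library had no base with an FDR under 0.05 in the intron 3 runs, and in the intron 4 run it had 4 peaks, of which 3 belonged to shared regions. Without the weak peaks in dense runs, distal peaks numbered 15 and 13 at Grin2a and 5 and 8 at Grin2b, and 35 and 30 over the 7 genes.

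**Figure D3:**
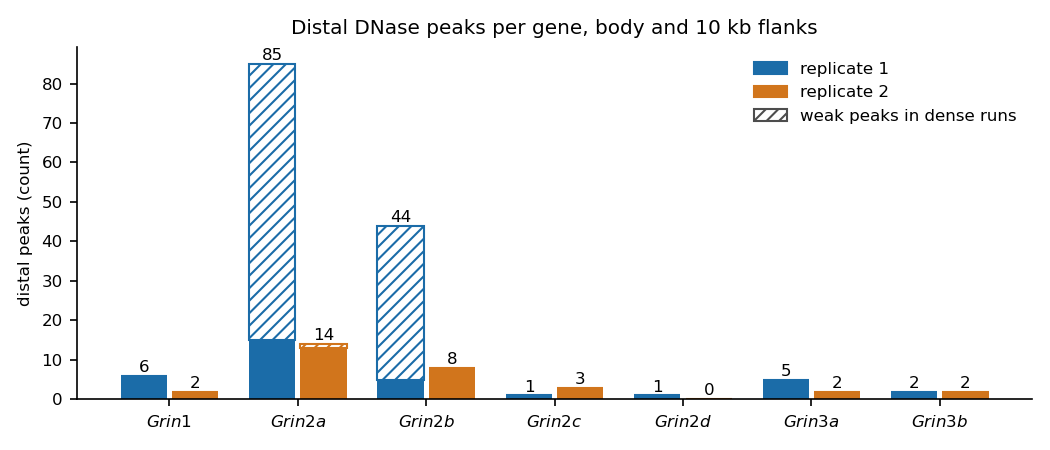
Number of distal peaks (linear axis from 0) at each gene with 10 kb flanks, in replicate 1 (blue) and the library labelled male replicate 2 (orange). Hatched parts are weak peaks in dense runs. The solid parts are 15 and 13 at Grin2a and 5 and 8 at Grin2b, while the full bars are 85 and 14 and 44 and 8.

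These runs were called with small FDR values in spite of their low height. The 110 weak peaks of replicate 1 had a median height of 0.223 and a median negative log10 FDR (of the lowest FDR in the peak) of 6.89, against 1.19 and 4.19 for the 24 promoter-class peaks of that library. At Grin2b, 29 of 44 distal peaks of replicate 1 were lower than the strongest promoter peak and yet had a smaller FDR than its 4.30 on that scale. At Grin2a it was 51 of 85, against 5.51. In the library labelled male replicate 2 it was 0 of 8 at Grin2b and 4 of 14 at Grin2a. At Grin1 it was 3 of 6 in replicate 1, against 4.64, and 0 of 2 in the other library. Those 3 peaks of Grin1 were not in the class of weak peaks in dense runs.

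The run in intron 4 of Grin2a also held 3 shared regions, and at 2 of them the replicate 1 peak had a far smaller FDR. At the one of height 1.29 and 1.05, the negative log10 FDR was 83.7 in replicate 1 and 3.63 in the other library, and at that of 1.17 and 0.735 it was 63.4 and 1.66. At the last, of 0.982 and 0.857, the peaks themselves had 1.71 and 2.32. Under the wider peak of the other library, however, replicate 1 reached 39.5, so there too its FDR was far smaller. Outside the runs, the higher intron 3 peak (1.97 and 1.30) had 5.05 and 5.997. The region at exon 5 and intron 5 of Grin1 gave 45.9 and 1.59 at heights of 0.975 and 0.735. Genome-wide, 54.8% and 50.01% of such weak peaks were in the stricter list, so the stricter list does not remove them. For all peaks, the stricter lists held 49304 and 42855, beside 93545 and 79144 in the longer lists. In replicate 1 the stricter list kept 30 of the 39 weak peaks at Grin2b. At Grin2a it kept 22 of 25 in the intron 4 run, and 19 of 22, 8 of 14 and 7 of 9 in those of intron 3. By the stricter lists, distal peaks at the 7 genes numbered 111 and 14. The cause of the runs was not tested.

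**Figure D4:**
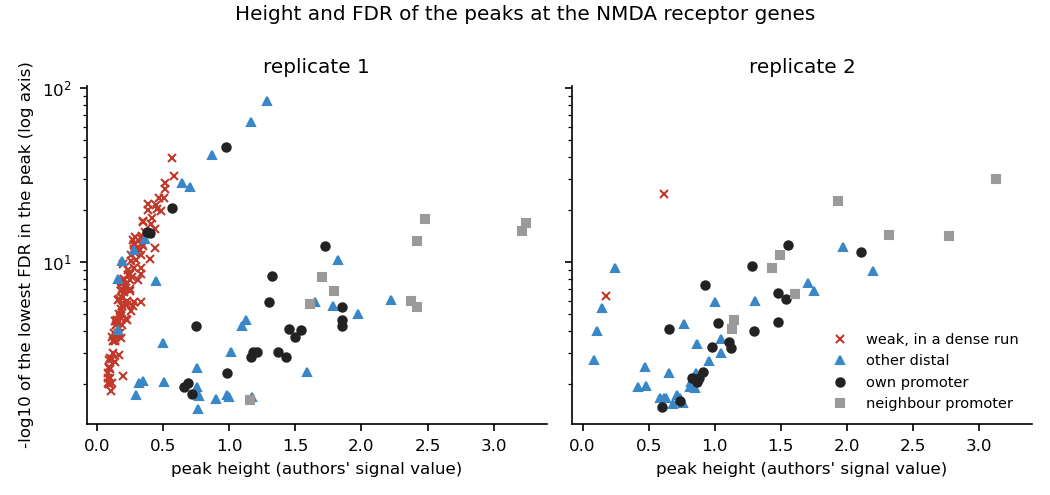
Peak height (horizontal, the authors' signal value) against the negative log10 of the lowest FDR in each peak (vertical, log axis) for the 178 peaks of replicate 1 (left) and the 60 of the library labelled male replicate 2 (right) at the 7 genes. In replicate 1 the weak peaks in dense runs (red crosses) lie on a steep arm, apart from most promoter peaks (black circles). Their median height is 0.223 and their median on the vertical axis 6.89. Other peaks of Grin1 and Grin2a lie on that arm too, such as those at 0.643 and 28.4 (Grin1) and at 1.29 and 83.7 (Grin2a).

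Against the 200 genes nearest in length, the distal count of Grin2a stood at the 100 and 80.5 percentiles. For Grin2b it was 97.75 and 50.5. With weak peaks in dense runs left out for all genes, Grin2a stood at 78.5 and 79.0 and Grin2b at 25.5 and 52.0. The count of Grin2a then stayed in the upper part of its length class in both libraries, and that of Grin2b lay near or below the middle. With all peaks, the percentiles were 92.25 and 74.25 for Grin1, 55 and 90.5 for Grin2c and 84.5 and 86.75 for Grin3b. They were lower for Grin2d (42.25 and 13.25) and Grin3a (53 and 25.25).

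Grin2c encodes GluN2C, best known from cerebellar granule cells and from glia. No peak lay within 1 kb of either of its annotated starts, nor did a base with an FDR under 0.05 or a footprint, in either library. The RefSeq promoter of Grin2c is rich in CpG all the same, with 22 in 300 bases, more than 76.9% of promoters, and a GC content of 70.0%. The nearest peak ended 3298 bp and 3338 bp upstream of the 5′ start, in the region printed above, with heights of 1.82 and 1.75 (1.79 ± 0.0494, SD, n = 2). It stood at the 92.1 percentile of shared distal regions. It lies within the neighbouring gene Fdxr, which encodes a mitochondrial reductase, and within 2.5 kb of an annotated start of Fdxr. With a wider promoter window it is therefore no longer distal. The promoter peak of Fdxr, at another of its starts, was at 2.48 and 2.32. Replicate 1 had no peak in the body of Grin2c, and the other library had 1, of 0.471 over coding exon 15, and 1 of 0.477 downstream.

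Grin2d encodes GluN2D, a subunit of interneurons and of the early brain. Its promoter call rests on 1 narrow shared region, chr7:45866001-45866180, with heights of 1.30 and 1.48 (1.39 ± 0.129). The middle of the peak lay 978 and 1048 bp downstream of the start of Grin2d-201, at the edge of the window. Replicate 1 also had peaks of 0.714, 0.685 and 0.657 near the starts of Grin2d-201 and Grin2d-203, which the other library lacked. At the most upstream start, that of Grin2d-202, there was no peak within 1 kb in either library. The stronger sites of the interval belonged to Kdelr1 (2.42 and 2.77), a receptor that returns proteins to the endoplasmic reticulum, and Grwd1 (2.37 and 1.93). Grin2d had the fewest distal peaks, with 1 (0.770, over coding exon 13) and 0. The promoter of Kcnj14, a potassium channel gene in the interval, had none.

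Grin3a encodes GluN3A, which lowers the calcium permeability of the receptor and is prominent in the juvenile brain. The promoter formed 1 region of 1260 bp over the 5′ starts (chr4:49844821-49846080) with heights of 1.72 and 1.55 (1.64 ± 0.121), holding 13 and 5 footprints. A smaller region over the coding part of exon 1 had 0.749 and 0.657. Only weak distal peaks were found: the shared ones, in intron 6 and intron 1, had heights of 0.509 and 0.767, and of 0.495 and 0.419. They ranked at the 39.6 and 16.8 percentiles of shared distal regions. The intron 6 region held a CTCF consensus match of 13 positions that no footprint touched. The other 3 distal peaks of replicate 1 had heights from 0.297 to 0.346. At the start of Ppp3r2, a gene inside Grin3a, there was no peak.

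Grin3b encodes GluN3B, known chiefly from motor neurons. No peak, footprint or base with an FDR under 0.05 lay within 1 kb of its 3 starts in either library, and the nearest peak to the 5′ start was 10535 bp away in both. The RefSeq promoter of Grin3b held 3 CpG, and 23.3% of promoters held fewer. All 6 and 5 peaks of its interval lay downstream of the gene, where the promoter of Tmem259 reached 3.24 and 3.13. The distal peaks there were chr10:79985621-79986140 (1.65 and 0.999) and chr10:79987101-79987300 (1.79 and 1.97, at the 93.2 percentile). The former held a GGGCGG match and the latter a CATCTG (E-box) match wholly inside footprints of both libraries, patterns found in 10.1% and 24.1% of shared distal regions. Both regions lie within 2.5 kb of a start of another gene. Wdr18, with a start in the interval, had its promoter peaks outside it.

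Footprints at the 7 genes numbered 318 and 132 (225 ± 132, SD, n = 2). Of these, 134 and 37 lay at Grin2a, 72 and 18 at Grin2b and 43 and 25 at Grin1. Footprints of the other library overlapped 15.1% and 35.6% of them, against 29.99% and 39.4% of all footprints. In replicate 1, 98 of the 318 lay only in weak peaks of dense runs. Bases with an FDR under 0.05 covered 68.5 and 21.4 kb, of which Grin2a had 34.6 and 6.83 kb and Grin2b 17.5 and 2.84 kb. The other 5 genes differed less between the libraries, from 1.15 and 1.45 kb at Grin2c to 7.22 and 2.90 kb at Grin1.

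Over the promoter and distal regions shared by both libraries, 50 matches to 14 short motifs were found. Footprints of both libraries covered 4 of them wholly and touched 9, and 33 were touched in neither. The 4 were the CTCF match of Grin1, the GGGCGG match of the Grin2a promoter, and the GGGCGG and CATCTG matches downstream of Grin3b. Besides those named, the search took CRE (TGACGTCA), AP1 (TGANTCA), ETS (CCGGAAG), MEF2 (CTANAAATA), YY1 (AAGATGGCG), CAGCTG and NFI (TGGC, a gap of 5 bases, GCCA), on both strands. A match is a string of letters and shows no binding.

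Other genes of the pathway were read from lists. Promoter peaks of both libraries were present at 4 of 4 AMPA receptor genes, 5 of 5 kainate and 8 of 8 metabotropic receptor genes, against 63.2% of all protein-coding genes. Among scaffold and signalling partners of the postsynaptic density it was 12 of 12, and for Rest and Rcor1, a repressor and its cofactor, 2 of 2. Of genes that handle the co-agonists glycine and D-serine it was 3 of 5. Slc7a10, an astrocyte transporter of D-serine, had a promoter peak in the library labelled male replicate 2 alone (0.677), and Dao, which degrades D-serine, had none.

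Of the partners, the scaffold genes Dlg2 and Shank2 had the most distal peaks, with 35 and 31, and 36 and 27. Gria1 had 27 and 28 and Gria2 3 and 2, and Grik4 27 and 13 and Grik5 19 and 12. Grm7 had 18 and 16 and Grm5 10 and 11, Slc6a9, a glycine transporter, 5 and 4, Slc1a4 2 and 1, Rcor1 6 and 3 and Rest none. Medians were 5 and 2 distal peaks for the NMDA receptor genes, 2.5 and 2 for AMPA, 14 and 7 for kainate and 5.5 and 6 for metabotropic receptor genes, 8.5 and 6 for the partners, and 1 and 1 for all protein-coding genes. By count, the NMDA receptor genes thus lay within the range of these lists. Per 100 kb of interval they did not in replicate 1. Their median there was 7.55, the highest of the lists, and in the other library 3.13, second to the partners. The 7.55 is the value of Grin3b, whose 2 distal peaks lay downstream of the gene. With a promoter window of 2.5 kb, or without flanks, Grin3b had 0 distal peaks, so this rank rests on sites outside the gene. List densities without weak peaks in dense runs were not computed. The partners had 6.25 and 4.62, and all protein-coding genes 1.70 and 1.32. These counts and densities include weak peaks in dense runs.

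The genes nearest to each member in pattern were sought by the strongest promoter height and the summed distal height of both libraries, among the 200 genes nearest in length. For Grin1 they were Stx1a, a presynaptic fusion protein, and Smad7 (distances of 0.172 and 0.371, against a median of 3.35 over the 200). For Grin2a they were Plxna4 and Aff3 (0.626 and 0.691, median 2.74), for Grin2b Rad51b and Galnt17 (0.361 and 0.411, median 1.85), for Grin2d Ikbkb and Gtf2a1l (0.574 and 0.683, median 2.46) and for Grin3a Clvs1 and Pdgfc (0.168 and 0.377, median 2.14). The distances are over 4 values of 2 libraries and describe likeness of pattern only.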

How the data were processed

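DNase-seq files of 2 hippocampus libraries were used. Per the file headers the assembly was mm10. The aligner and the callers were not given in the sources used here. Peak heights are the deposited signal values of the longer peak list of each library, and the shorter, stricter list was an alternative. FDR values are the authors' p-value type column for runs of bases, of which those under 0.05 were used, and the constant in the footprint files was not used. Replicates were not pooled by the authors, per the file headers.

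Genes and TSSs came from GENCODE M21. Sequences came from GRCm38.p6 and from the RefSeq promoter table of that build, which held 4 of the 7 members (Grin1, Grin2c, Grin2d and Grin3b). Overlaps of at least 1 bp were counted with bedtools 2.31.1 and Python 3.11.15 (pandas 2.3.3, numpy 2.4.6, pysam 0.24.0 and scipy 1.17.1), whose interval code was tested on simulated intervals. Figures were drawn with matplotlib 3.10.9. Intervals on shares are exact (Clopper-Pearson, 95%). With 2 libraries of 1 group no test between groups was made, and values are given per library or as mean ± SD. Likeness of pattern was the Euclidean distance of log2 values with a pseudocount of 0.5.

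The members, gene lists and alternatives were chosen with earlier results of these data known. Named were the 7 members, coding genes with a TSS in their intervals, the 2 genes nearest in pattern to each member with a promoter peak, and of each pathway list the genes without a promoter peak in both libraries and the 2 with the most distal peaks. The list of 1 further receptor family is not reported here. Peaks named one by one were the strongest promoter peak and the 2 strongest shared distal peaks of each member, and all peaks of members with few; others were chosen after their values were seen. Weak peaks in dense runs and the CTCF consensus were also defined after the data had been seen.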

Additional observations from a re-analysis of the deposited data

How the results depend on the processing

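Counts were judged by whether they stayed within 1.5 times the main count, and shares, kilobases and heights by whether they stayed within 1 SD of the 2 libraries, which is wide for shares and kilobases. By these rules 31 of 38 values of the main results under alternatives stayed. A kilobase or height value of 1 library alone always lies within 1 SD of the mean, so that its staying was fixed in advance. Both libraries had a promoter peak at 5 of the 7 genes under each of the alternatives run: the shorter peak list, a promoter window of 2.5 kb, protein-coding basic transcripts only, and each library alone. With 50 kb on each side, footprints rose from a mean of 225 to 363. Without weak peaks in dense runs, an alternative chosen after seeing the data, mean peak numbers fell from 119 to 63.0 and mean distal peaks from 87.5 to 32.5. The share of peaks found in both libraries then went from 35.7% to 67.5%, which the wide rule still counted as staying. Taking 1 library at a time, peaks ranged from 60 to 178, distal peaks from 31 to 144, footprints from 132 to 318 and kilobases at FDR under 0.05 from 21.4 to 68.5. For single genes, 26 of 77 values moved. Of these, Grin2a distal peaks went from a mean of 49.5 to 14 and those of Grin2b from 26 to 6.5 without weak peaks in dense runs, and the strongest Grin2d promoter peak from 1.39 to 2.598 with a window of 2.5 kb, which then takes in the promoter of Kdelr1. With that window, or without flanks, Grin3b had 0 distal peaks.

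No paired analysis was possible because the 2 libraries form a single group. The depth of the libraries is unknown, so a missing peak, as at the Grin2c and Grin3b promoters, shows only that none was called, and the height of peaks in the 2 libraries has no stated common scale. Peaks of a hybrid genome were called on the mm10 reference, and what this does to them was not tested.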
